A study of Mus musculus with 10 samples.

Results

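The genes described here are 10 members of the machinery that carries a cell from G1 into S phase: the D-type cyclins Ccnd1, Ccnd2 and Ccnd3, the E-type cyclins Ccne1 and Ccne2, the kinases Cdk2, Cdk4 and Cdk6, the inhibitor Cdkn1b and the retinoblastoma gene Rb1. They were taken by symbol from 31053 annotated genes, all 10 were found, and all 10 were among the 11215 genes kept after a filter on low counts. Rb1 passed that filter through its 96 h libraries, since 0 of 4 2iL libraries reached the 3.00 CPM (read counts scaled to the library total) that the filter required. The cells were mouse embryonic stem (ES) cells of the E14 line, and every library came from cells stably carrying a construct from which doxycycline (DOX) induces Esrrb, an orphan nuclear receptor found in naive ES cells. In the first group (2iL, n = 4) the cells grew without DOX in N2B27 medium with 3 µM CHIR99021 (a GSK3 inhibitor), 1 µM PD0325901 (a MEK inhibitor) and LIF. In the other groups the inhibitors and LIF were withdrawn for 96 h in N2B27, either without DOX (96 h no DOX, n = 3) or with it (96 h DOX, n = 3). Neither 2iL cells given DOX nor cells lacking the construct are among the libraries analysed, and the construct's promoter and the number of clones were not stated in the labels. The labels name 2 experiments, and a library called exp1_2 is library 2 of experiment 1. Nothing in the labels says that libraries of a group came from separate cultures, so p-values measure the spread between these libraries, which may be technical.

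D-type cyclins bind Cdk4 or Cdk6, E-type cyclins bind Cdk2, and both kinds of complex phosphorylate the Rb protein, which then releases E2F transcription factors to switch on S phase genes. Cdkn1b encodes p27, which holds cyclin E-Cdk2 in check. Mouse ES cells grown in serum are known for a short G1 phase, high cyclin E-Cdk2 activity and an Rb protein kept largely phosphorylated. In such cells G1 lengthens on differentiation. Whether this holds for cells grown with a MEK inhibitor, as in the first group here, was not tested.

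RNA with polyA tails was sequenced by 3′ digital gene expression, so that reads come from transcript ends. They held 2769071 to 4715450 reads in genes, apart from 96 h DOX exp1_2 with 1253620. That library stood apart in further ways: the ribosomal-repeat gene Gm42418 took 14.8% of its reads against 3.39% to 6.61% elsewhere, and mitochondrial genes took 3.10% against 0.559% to 1.27%. The summed level of 8 fibroblast markers was 2363 CPM there and 90.4 to 361 CPM in the other 9 libraries, with 6 of the 8 at their highest in it. Of 5 macrophage markers 3 were at their highest there (sum 63.8 against 8.33 to 30.8 CPM), while the defining macrophage gene Adgre1 was at 0. Its deposited counts also carry a later date than the rest. Marker sums are CPM without further scaling. ES cell and epiblast markers, 8 in all and none at 0 in any library, had summed levels from 1829 to 2403 CPM (2iL), from 2433 to 2857 CPM (no DOX) and from 3223 to 3594 CPM (DOX). With DOX against no DOX, 0 of the 8 were higher and 1 lower at an adjusted p below 0.05 by edgeR. Over all tested genes, 2.16% were higher and 0.945% lower. In exp1_2 only Trim28 was at its highest (1047 CPM, at most 650 elsewhere), and Pou5f1 was at its lowest (20.7 CPM). Esrrb itself was at 378, 229, 331 and 323 CPM in 2iL, at 23.8, 13.6 and 32.02 CPM at 96 h without DOX, and at 12.8, 27.04 and 14.7 CPM with DOX. It did not rise with DOX (log2 fold change -0.32 ± 0.33 SE, adjusted p = 0.704 by edgeR). The labels do not say whether the construct carries the transcript end that these libraries read, so this value does not check the induction.

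Levels below are CPM after scaling by the trimmed mean of M-values (TMM), given in the order of libraries exp1_1, exp1_2, exp2_1 and exp2_2 for 2iL, exp1_1, exp1_2 and exp2_2 for 96 h no DOX, and exp1_1, exp2_1 and exp1_2 for 96 h DOX. Fold changes are log2 differences between group means from 1 edgeR quasi-likelihood fit of all 10 libraries, with their standard error (SE) and a p adjusted over 11215 genes by the Benjamini-Hochberg method. A gene was called when that p was below 0.05. The 3 comparisons share groups, so they are not independent of each other.

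Ccnd3 and Cdk6 were lower at 96 h than in 2iL whether or not DOX was given, and Ccnd1 was lower only in the DOX libraries, a difference that was itself tested in the DOX comparison. Promoter windows of Ccnd3 and Cdk6, the pair of members that fell on withdrawal, are printed here as the regulatory sequence at their starts. They come from RefSeq (GRCm38.p6), which held a window for 6 of the 10 members, and are the 250 bases before each annotated start, read 5′ to 3′ on the plus strand, which is the gene strand for both. Capitals mark GC boxes (CCCGCCC) in Ccnd3 and an E-box (CACGTG) in Cdk6. Ccnd3 has 2 annotated starts, at chr17:47504801-47505050 (upstream start) and chr17:47593217-47593466 (downstream start), and the Cdk6 window is chr5:3343643-3343892. The Cdk6 window lies inside the gene span given below (chr5:3341485-3531008), and the downstream Ccnd3 window inside that of Ccnd3. These RefSeq starts are thus not the first bases of those spans.

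Ccnd3 upstream start: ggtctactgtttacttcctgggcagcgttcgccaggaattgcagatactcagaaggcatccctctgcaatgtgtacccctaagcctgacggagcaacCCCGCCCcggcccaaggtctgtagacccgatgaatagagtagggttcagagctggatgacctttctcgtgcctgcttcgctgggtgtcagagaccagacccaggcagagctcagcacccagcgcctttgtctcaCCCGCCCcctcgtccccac
Ccnd3 downstream start: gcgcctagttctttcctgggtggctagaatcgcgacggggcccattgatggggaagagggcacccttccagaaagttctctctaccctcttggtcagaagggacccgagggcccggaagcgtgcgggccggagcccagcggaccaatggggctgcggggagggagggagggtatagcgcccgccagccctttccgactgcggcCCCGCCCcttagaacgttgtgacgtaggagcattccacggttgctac
Cdk6: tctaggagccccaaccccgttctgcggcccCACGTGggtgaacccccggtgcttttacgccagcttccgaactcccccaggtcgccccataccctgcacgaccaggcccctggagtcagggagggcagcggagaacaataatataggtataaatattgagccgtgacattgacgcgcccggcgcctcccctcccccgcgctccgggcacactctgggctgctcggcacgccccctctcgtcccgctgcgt

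The upstream Ccnd3 window holds a GC box beginning 19 and another beginning 153 bases before the start, the downstream window holds 1 beginning 47 bases before it, and the E-box of Cdk6 begins 220 bases before its start. Both strands were searched, and no 2 of these matches overlap. Of 32851 RefSeq windows of the same length, 23.4% hold a GC box and 6.02% an E-box. These letters were added to the search after the windows had been read. Other letters searched were 3 forms of the E2F site (TTTCGCGC, TTTGGCGC and TTTCCCGC), the TCF/LEF site (CTTTGAT), the Esrrb site (CAAGGTCA), the STAT site (TTCNNNGAA) and the cAMP response element (TGACGTCA), and none of them was in the 3 windows printed. Among the other members with a window, the Cdk2 window holds TTTCCCGC on the other strand (0.895% of all windows hold it) and the Cdk4 window holds CTTTGAT on the other strand (3.21%). GC boxes are also in the Ccne1, Cdk2 and Cdk4 windows, and E-boxes are also in that of Cdk4. These members were not called in any comparison, so neither match is particular to Ccnd3 and Cdk6. The 7 member windows are 59.6% to 76% G and C, against a median of 52.4% over all windows. A match is a description of these bases and shows no binding.

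Ccnd1 encodes cyclin D1, the D-type cyclin best known as a target of growth factor and Wnt signalling (ENSMUSG00000070348, GRCm38, chr7:144929931-144939925, minus strand). Its level in 2iL was 344, 193, 333 and 377 CPM, and at 96 h without DOX it was 292, 196 and 276 CPM. With DOX it was 82.0, 83.0 and 75.9 CPM. The 3 DOX libraries lay close together and below every other library, and the other groups overlapped. Means were 312 ± 81.3 (SD, n = 4), 255 ± 51.2 (n = 3) and 80.3 ± 3.84 (n = 3). Ccnd1 fell by 1.66 ± 0.26 log2 units with DOX against no DOX (3.17-fold, adjusted p = 0.000788 by edgeR) and by 1.95 ± 0.26 against 2iL (adjusted p = 1.88e-05). Withdrawal alone gave -0.29 ± 0.24 (adjusted p = 0.462). Without the library exp1_2 the DOX value was -1.63 with adjusted p = 0.00109. The estimates for experiments 1 and 2 were -1.63 and -1.73, and a fit of experiment 1 alone gave -1.61 with adjusted p = 0.0506 by edgeR. That fit has 2 libraries in each group and a wider SE (0.38 for Ccnd1). Here and below, a call lost within experiment 1 therefore does not show that the experiments differ. LTO1 lies on the opposite strand, covers the 3′ end of Ccnd1 over 1771 bases and held 239 reads over all libraries. It gave -0.77 with DOX against no DOX and -0.99 against 2iL (adjusted p = 0.584 and 0.248 by edgeR). The strand setting of the counting is unstated, and the part of LTO1 in the Ccnd1 values was not tested.

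Summed extraembryonic endoderm markers also set the DOX libraries apart from both other groups. Some early neural markers differed between DOX and no DOX, but unlike Ccnd1 their sum was lowest in 2iL. Of 12 endoderm markers, 11 could be tested and 9 rose with DOX against no DOX, where 2.16% of all genes were called higher. Their summed levels were from 372 to 538 CPM (2iL), from 340 to 527 CPM (no DOX) and from 1040 to 2440 CPM (DOX). The highest value is that of exp1_2, where Sparc alone was at 1662 CPM, and the other DOX libraries were at 1040 and 1059 CPM. None of the 12 was at 0 in a DOX library, whereas Sox7 was at 0 in every library of the other groups. Of 6 early neural markers, 5 could be tested and 2 fell with DOX against no DOX, where 0.945% of all genes were called lower. Their summed levels were from 35.7 to 48.1 CPM (2iL), from 288 to 424 CPM (no DOX) and from 51.8 to 106 CPM (DOX). Sox3 alone was at 201 to 362 CPM without DOX and 17.5 to 52.5 CPM with it. The highest Sox1, Pax6 and Zic1 levels with DOX (8.77, 16.6 and 0.997 CPM) were above the highest without it (6.57, 11.7 and 0.892 CPM). The part of such cells in the fall of Ccnd1 was not tested. In bulk RNA, fewer cells of a type and less RNA per cell cannot be told apart.

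Ccnd3, cyclin D3 (ENSMUSG00000034165, chr17:47505051-47599691, plus strand), stood at 579, 386, 426 and 432 CPM in 2iL. At 96 h it was at 149, 184 and 233 CPM without DOX and at 287, 195 and 202 CPM with DOX. All 6 libraries at 96 h were below all 4 in 2iL, and the 96 h groups overlapped. Ccnd3 fell by 1.27 ± 0.24 log2 units without DOX (2.41-fold, adjusted p = 0.000570) and by 1.00 ± 0.24 with DOX (adjusted p = 0.00588) against 2iL. DOX against no DOX gave 0.27 ± 0.25 (adjusted p = 0.660, 95% interval -0.25 to 0.79). The DOX value was -0.92 (adjusted p = 0.0105) without exp1_2, and -0.97 (adjusted p = 0.115) within experiment 1. The last 361 bases of the gene overlap Bysl, which lies on the opposite strand and gave 0.19 and -0.02 against 2iL without and with DOX (adjusted p = 0.684 and 0.969).

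Ccnd2, cyclin D2 (ENSMUSG00000000184, chr6:127125162-127152193, minus strand), had 1 DOX library far from the rest. In 2iL it was at 6.99, 11.4, 22.7 and 35.9 CPM, and without DOX at 39.3, 45.1 and 30.3 CPM. With DOX it was at 14.7, 12.6 and 194 CPM, the last in exp1_2, which was 14.2 times the mean of the other DOX libraries and 4.32 times the highest library elsewhere. No comparison passed the test: the log2 fold change was 1.00 ± 0.97 without DOX against 2iL (adjusted p = 0.567) and 0.89 ± 1.03 with DOX against no DOX (adjusted p = 0.757). Without exp1_2 the DOX value changed sign to -1.48 (adjusted p = 0.142), and that against 2iL went from 1.88 to -0.48. Of the 8 fibroblast markers given above, 6 were at their highest in the same library, with Col1a2 at 1288 CPM there and at most 2.38 CPM elsewhere. Their part in the Ccnd2 value was not tested.

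**Figure D1:**
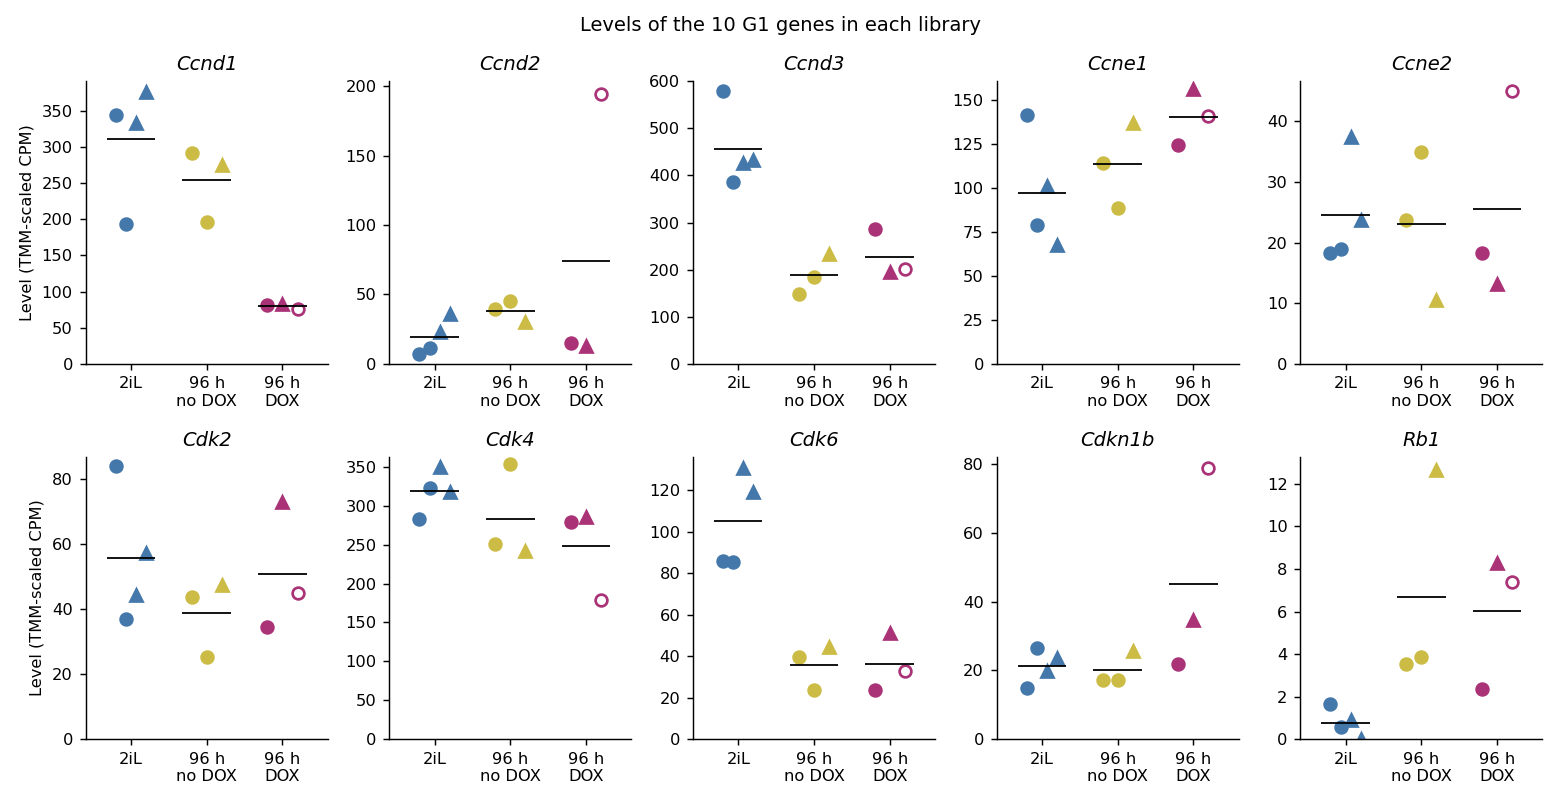
Level of each of the 10 genes in TMM-scaled CPM (vertical axes, from 0, 1 scale per gene) for 2iL, 96 h no DOX and 96 h DOX. Each point is a library, circles are experiment 1, triangles experiment 2, the open circle is 96 h DOX exp1_2 and the line is the group mean. The DOX libraries of Ccnd1 sit at 75.9 to 83.0, below all others, while the open circle carries the means of Ccnd2 and Cdkn1b.

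As a share of the reads of the 3 D-type cyclins in a library, Ccnd1 held 37.0%, 32.7%, 42.6% and 44.6% in 2iL, 60.8%, 46.1% and 51.2% without DOX, and 21.4%, 28.6% and 16.1% with DOX. The 3 groups did not overlap, with the share highest without DOX and lowest with it. Shares are of reads from transcript ends, and how well such reads were counted was not compared between genes. They show how the make-up moved between groups and do not rank the genes within a library. Ccnd3 held 62.2%, 65.4%, 54.5% and 51.2% in 2iL and 31.0%, 43.3% and 43.2% without DOX. With DOX it held 74.8%, 67.1% and 42.7%, so the DOX libraries were split, and the last of them was exp1_2, in which Ccnd2 took 41.2% against 0.752% to 10.6% in the other 9. The summed level of the 3 genes was 590 to 930 CPM in 2iL, 426 to 539 CPM without DOX and 290 to 472 CPM with DOX. Every library at 96 h was thus below every 2iL library in summed D-type cyclin reads, while the 96 h groups overlapped.

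**Figure D2:**
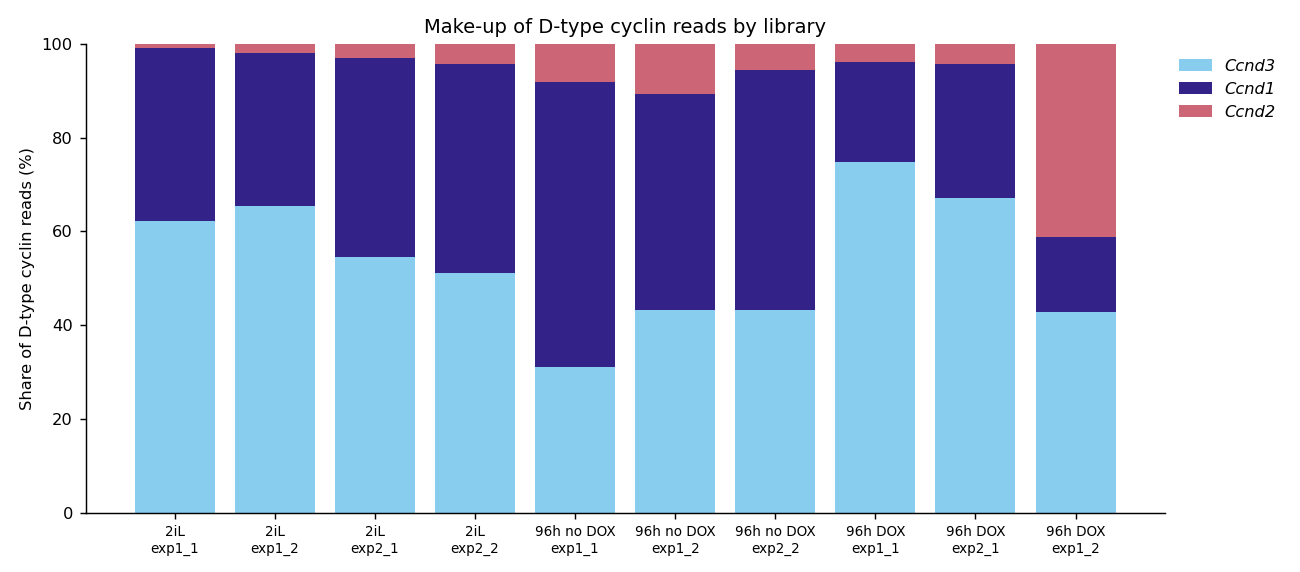
Share of Ccnd1, Ccnd2 and Ccnd3 in the D-type cyclin reads of each library (vertical axis, percent of those reads), 1 bar per library. The Ccnd1 segment is 16.1% to 28.6% in the DOX libraries and 46.1% to 60.8% without DOX, and Ccnd2 takes 41.2% in 96 h DOX exp1_2.

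The E-type cyclins gave no call by edgeR in any comparison, and 1 of their tests had an unadjusted p below 0.05 (Ccne1 with DOX against 2iL). Ccne1, cyclin E1 (ENSMUSG00000002068, chr7:38097984-38107534, minus strand), was at 141, 78.7, 101 and 67.6 CPM in 2iL, 114, 88.6 and 137 CPM without DOX, and 124, 156 and 141 CPM with DOX. Group means stood in the order 2iL, no DOX and DOX, at 97.1 ± 32.5, 113 ± 24.2 and 140 ± 15.9 CPM. All groups overlapped, also the outermost in that order. The outermost groups differed by 0.53 ± 0.25 log2 units (adjusted p = 0.165 by edgeR, 95% interval 0.01 to 1.05). That difference passed with limma on log2(CPM + 1) (adjusted p = 0.0475) and without 2iL exp1_1 (0.76, adjusted p = 0.0493).

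Ccne2, cyclin E2 (ENSMUSG00000028212, chr4:11191351-11204779, plus strand), was lower in counts. It was at 18.3, 19.0, 37.5 and 23.7 CPM in 2iL, 23.8, 34.9 and 10.6 CPM without DOX, and 18.3, 13.2 and 44.9 CPM with DOX. All groups overlapped, and log2 fold changes lay between -0.08 and 0.08. Without exp1_2, the highest DOX library, DOX against no DOX gave -0.56 (adjusted p = 0.704). The change on withdrawal without DOX was 0.66 in experiment 1 and -1.53 in experiment 2, a difference of -2.19 ± 0.76 with an unadjusted p = 0.0103 and adjusted p = 0.537 by edgeR. Of 30 such tests over the members and comparisons, 3 had an unadjusted p below 0.05 (Ccne2 in both comparisons with 2iL, and Ccnd2 with DOX against 2iL) and 0 an adjusted one. Experiment 2 has 1 library in each 96 h group, which limits these tests. Ints8, on the opposite strand across the 3′ end of Ccne2, was not called in any comparison (adjusted p = 0.455 to 0.834 by edgeR).

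Among the kinases, Cdk6 fell and its relatives were not called. Cdk6, a partner of the D-type cyclins (ENSMUSG00000040274, chr5:3341485-3531008, plus strand), was at 85.9, 85.7, 131 and 119 CPM in 2iL. At 96 h it was at 39.6, 23.9 and 44.7 CPM without DOX and 24.0, 51.3 and 33.2 CPM with DOX, so that all 6 libraries lay below the 4 in 2iL. It fell by 1.55 ± 0.30 log2 units without DOX (2.93-fold, adjusted p = 0.000653) and by 1.54 ± 0.30 with DOX (adjusted p = 0.00115) against 2iL. The DOX groups differed by 0.01 ± 0.31 (adjusted p = 0.992, 95% interval -0.64 to 0.66). Both falls were called in every alternative run, with adjusted p up to 0.0205 and 0.0178, and the fall with DOX was -1.50 without exp1_2.

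Cdk4, the other partner of the D-type cyclins (ENSMUSG00000006728, chr10:127063534-127067920, plus strand), was at 283, 323, 349 and 318 CPM in 2iL, 251, 354 and 242 CPM without DOX, and 279, 285 and 178 CPM with DOX. The lowest value was that of exp1_2 and the groups overlapped. Its fold changes were -0.17 ± 0.23 and -0.36 ± 0.23 against 2iL, without and with DOX (adjusted p = 0.676 and 0.315). Tspan31, on the opposite strand across the 3′ end of Cdk4, was not called in any comparison (adjusted p = 0.810 to 0.871 by edgeR). Cdk2, the partner of cyclin E (ENSMUSG00000025358, chr10:128697939-128705031, minus strand), was at 83.9, 37.1, 44.2 and 57.3 CPM in 2iL, 43.8, 25.2 and 47.6 CPM without DOX, and 34.5, 72.8 and 44.9 CPM with DOX. It too overlapped between groups, with -0.52 ± 0.32 on withdrawal (adjusted p = 0.305) and 0.39 ± 0.35 with DOX against no DOX (adjusted p = 0.649).

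Cdkn1b, which encodes the inhibitor p27 (ENSMUSG00000003031, chr6:134920401-134925513, plus strand), was at 15.0, 26.6, 19.96 and 23.7 CPM in 2iL and 17.3, 17.3 and 25.6 CPM without DOX. With DOX it was at 21.9, 34.7 and 78.8 CPM, the highest again in exp1_2. DOX against no DOX gave 1.13 ± 0.40 log2 units with adjusted p = 0.153, and DOX against 2iL gave 1.04 ± 0.37 with adjusted p = 0.0592. Without exp1_2 the values were 0.49 (adjusted p = 0.672) and 0.40 (adjusted p = 0.521). Leaving out DOX exp1_1 instead gave 1.49 (adjusted p = 0.0403) and 1.41 (adjusted p = 0.0143), and DESeq2 gave 1.07 (adjusted p = 0.0410) against 2iL. By edgeR, library totals without scaling factors gave 1.21 (adjusted p = 0.0303) and no filter 1.00 (adjusted p = 0.0284) against 2iL. Cdkn1b was thus called against 2iL in 4 of 23 alternatives and not in the other 19. A difference on withdrawal alone was not detected (-0.09 ± 0.38, adjusted p = 0.907).

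**Figure D3:**
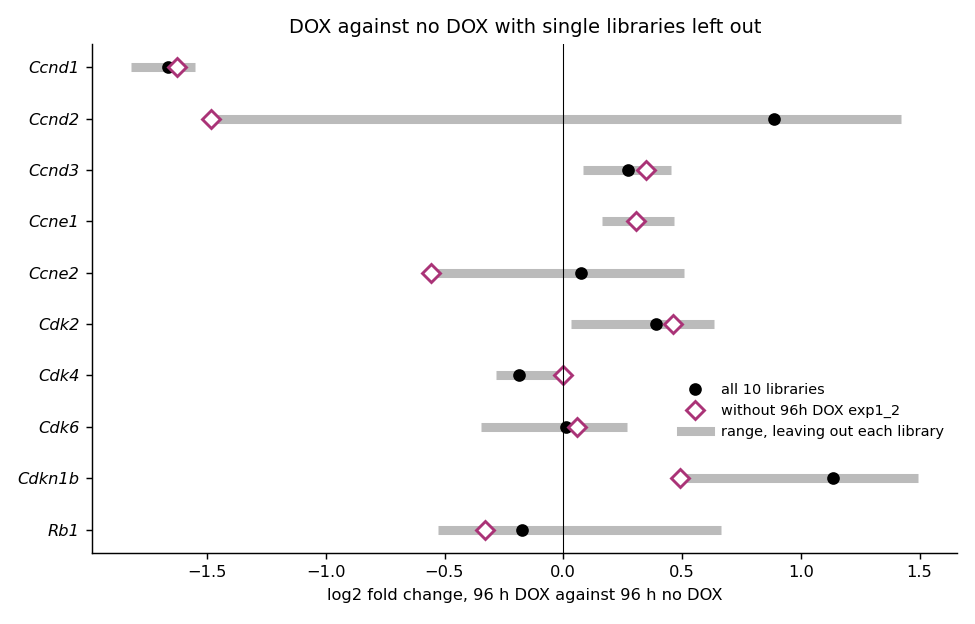
Log2 fold change of each gene with DOX against no DOX (horizontal axis). Filled points use all 10 libraries, open diamonds leave out 96 h DOX exp1_2 and grey bars span the values with each library left out in turn. Ccnd1 stays near -1.66, while Ccnd2 moves from 0.89 to -1.48 and Cdkn1b from 1.13 to 0.49 without exp1_2.

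Rb1, the pocket protein that the cyclin-dependent kinases phosphorylate (ENSMUSG00000022105, chr14:73183673-73325822, minus strand), had few reads. It was at 1.67, 0.58, 0.92 and 0 CPM in 2iL (10 reads in all), at 3.52, 3.88 and 12.6 CPM without DOX (73 reads) and at 2.38, 8.30 and 7.37 CPM with DOX (47 reads). A count of 0 allows up to 1.11 CPM, and every 96 h library lay above every 2iL library. Pooled reads gave ratios to 2iL of 7.89 (95% exact interval 4.06 to 17.1, counting error only) without DOX and 6.59 (3.28 to 14.6) with DOX. The fitted log2 fold change was 2.99 ± 0.83 on withdrawal (adjusted p = 0.0130) and 2.82 ± 0.85 with DOX against 2iL (adjusted p = 0.0262), both past the threshold. Because Rb1 entered the test only through the 96 h groups, where it is high, it could hardly have been tested without such a difference, and these calls are given as a description. The first call was lost without 96 h no DOX exp2_2 (2.16, adjusted p = 0.138) and within experiment 1 (1.70, adjusted p = 0.398). The second failed the threshold in 5 of 10 leave-one-out fits, including that without 96 h DOX exp1_2 (2.66, adjusted p = 0.0608). Rcbtb2 lies on the opposite strand across the 3′ end of Rb1 and rose too, by 2.35 and 2.18 log2 units (adjusted p = 0.00142 and 0.00424 by edgeR). With the strand setting of the counting unstated in the labels, reads of Rb1 and Rcbtb2 may not be separable. Lpar6, inside Rb1 on the opposite strand, gave 1.47 and 1.18 (adjusted p = 0.0418 and 0.131 by edgeR). Gm17233 lies on the same strand as Rb1, covers its 3′ end over 3649 bases and held 0 reads. Whether reads there were counted for neither gene was not tested, so the few reads of Rb1 may understate its level.

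Among the members, 3 of 10 were called on withdrawal without DOX (2 lower, 1 higher), where 20.4% of all tested genes were called, 11.5% higher and 8.90% lower. With DOX against 2iL 4 of 10 were called (3 lower, 1 higher), where 16.7% of all genes were called, 9.84% higher and 6.83% lower. Of the 10 members, 1 was called with DOX against no DOX (Ccnd1, lower), where 3.10% of all genes were called, 2.16% higher and 0.945% lower. The 1 higher call in each comparison with 2iL was Rb1, which passed the filter only through its 96 h libraries and is counted as a description. The remaining calls there were the 2 and 3 lower members. Groups did not overlap for 3, 4 and 1 members in these comparisons, against 30.9%, 27.6% and 18.7% of all tested genes. Rb1 is 1 of the 3 and 1 of the 4. Median log2 fold changes of the members were -0.13, -0.07 and 0.17, beside 0.00, 0.02 and -0.02 over all genes.

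**Figure D4:**
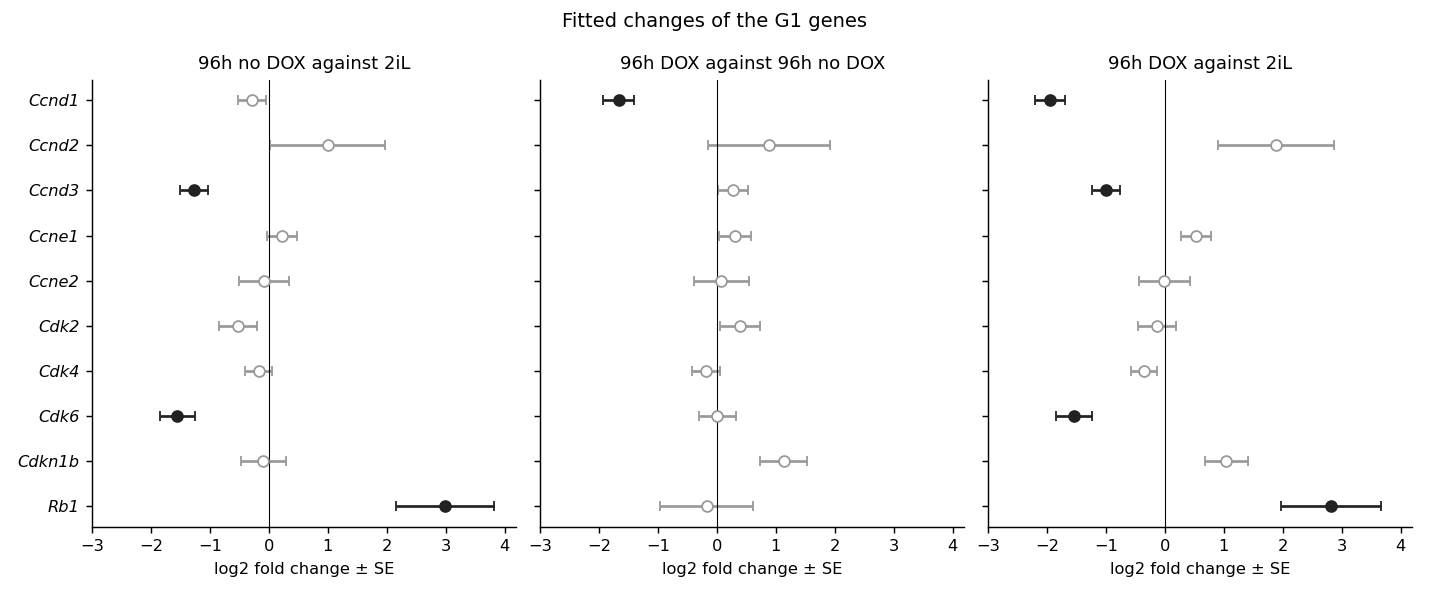
Log2 fold change ± SE of the 10 genes in each comparison (horizontal axes, 1 panel per comparison). Filled points were called at an adjusted p below 0.05 by edgeR: Ccnd3, Cdk6 and Rb1 on withdrawal, Ccnd1 with DOX against no DOX, and all of these against 2iL with DOX. Rb1 passed the filter only through its 96 h libraries.

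Other genes of the pathway were taken from 7 lists. None of their 79 tested genes was called with DOX against no DOX by edgeR, where 8 had an unadjusted p below 0.05, and DESeq2 called 2. With 3.10% of all genes called in that comparison, a count of 0 does not set these lists apart. Against 2iL, 12 of the 79 were called on withdrawal and 13 with DOX, beside 20.4% and 16.7% of all genes. Among 5 tested CDK inhibitors other than Cdkn1b, 1 rose and 1 fell in each comparison with 2iL. Cdkn1c, which encodes p57, was at 2.33, 3.80, 3.07 and 5.54 CPM in 2iL, 19.97, 16.8 and 32.3 CPM without DOX, and 21.2, 24.0 and 22.8 CPM with DOX, a rise of 2.64 ± 0.39 and 2.61 ± 0.40 log2 units (adjusted p = 4.40e-05 and 8.70e-05). All 6 libraries at 96 h were above all 4 in 2iL, exp1_2 included. Cdkn1a, which encodes p21, fell by 0.87 ± 0.29 without DOX (adjusted p = 0.0348, up to 0.114 in fits leaving out a library, 6 of 10 of which lost the call, and 0.242 within experiment 1). Cdkn2a, which encodes p16 and p19Arf, fell by 0.93 ± 0.22 with DOX (adjusted p = 0.00588), a call lost within experiment 1 (adjusted p = 0.2503).

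Of 11 tested pocket proteins and E2F or DP factors, 2 rose and 1 fell on withdrawal, and 1 rose and 2 fell with DOX against 2iL. E2f1, an activating E2F, was at 186, 92.7, 139 and 120 CPM in 2iL and fell to 72.2, 40.1 and 79.3 CPM without DOX and 49.0, 54.7 and 28.7 CPM with DOX. The log2 fold changes were -1.08 ± 0.29 (adjusted p = 0.0109, 0.0709 without 96 h no DOX exp1_2 and 0.0511 within experiment 1) and -1.58 ± 0.30 (adjusted p = 0.000904). E2f7 and E2f8, which encode repressive E2F proteins, rose on withdrawal by 1.20 ± 0.31 and 0.89 ± 0.30 (adjusted p = 0.00800 and 0.0431). The call of E2f8 was lost in 7 of 10 fits leaving out a library and that of E2f7 in 1, without 96 h no DOX exp2_2 (adjusted p = 0.0552). Neither call held within experiment 1 (E2f7 0.77, adjusted p = 0.328; E2f8 0.67, adjusted p = 0.431). Rbl1, which encodes the pocket protein p107, fell by 1.49 ± 0.31 with DOX (adjusted p = 0.00201, 0.0568 within experiment 1). Tfdp2, a DNA-binding partner of E2F, rose by 0.85 ± 0.27 with DOX (adjusted p = 0.0355), and by 0.58 (adjusted p = 0.183) without exp1_2. Within experiment 1 its adjusted p was 0.192 by edgeR.

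All 20 S phase and E2F target genes could be tested. On withdrawal 0 rose and 1 fell, and with DOX against 2iL 0 rose and 4 fell, where 8.90% and 6.83% of all genes were called lower, with list medians of -0.34 and -0.52 beside 0.00 and 0.02 over all genes. Uhrf1, a maintenance factor of DNA methylation, fell by 0.95 ± 0.23 and 1.11 ± 0.24 (adjusted p = 0.00545 and 0.00251), and neither call held within experiment 1 (adjusted p = 0.308 and 0.150). Mcm6, a subunit of the replicative helicase, was at 281, 183, 249 and 244 CPM in 2iL and 110, 118 and 54.5 CPM with DOX, a fall of 1.33 ± 0.27 (adjusted p = 0.00182). Its DOX libraries lay below all 2iL libraries.

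Of 8 CDK-activating kinase and phosphatase genes, 1 was called: Cdc25a, a phosphatase that activates Cdk2, fell by 0.99 ± 0.22 with DOX against 2iL (adjusted p = 0.00307). Of 13 tested genes for the turnover of cyclin E and p27, 1 was called: Cks1b, a cofactor in p27 degradation, rose by 0.88 ± 0.24 on withdrawal (adjusted p = 0.0107), a call lost without 96 h no DOX exp1_1 (adjusted p = 0.0604) or exp2_2 (adjusted p = 0.0682), and within experiment 1 (0.57, adjusted p = 0.408). None of 9 tested other cyclins and kinases was called in any comparison by edgeR or DESeq2, and 1, 0 and 1 had an unadjusted p below 0.05 on withdrawal, with DOX against no DOX and with DOX against 2iL. Among 13 tested inputs to D-type cyclins and p27, 5 rose on withdrawal and 3 rose with DOX against 2iL, and none fell, where 11.5% and 9.84% of all genes were called higher. Jun, a component of AP-1, was at 1.33, 2.63, 6.45 and 5.54 CPM in 2iL and 19.1, 25.7 and 29.1 CPM without DOX, a rise of 2.62 ± 0.50 (adjusted p = 0.000690). With DOX its rise of 1.99 ± 0.52 (adjusted p = 0.0111) went to 1.35 (adjusted p = 0.0865) without exp1_2. Lef1, a Wnt-responsive transcription factor, rose by 2.24 ± 0.53 and 2.42 ± 0.54 log2 units (adjusted p = 0.00476 and 0.00391), and its 2iL libraries of experiment 2 (20.3 and 11.1 CPM) were higher than those of experiment 1 (2.00 and 2.34 CPM). Without exp1_2, the other list genes named with DOX against 2iL (Cdkn1c, Cdkn2a, E2f1, Rbl1, Uhrf1, Mcm6, Cdc25a and Lef1) were still called by edgeR, with adjusted p up to 0.00910.

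**Figure D5:**
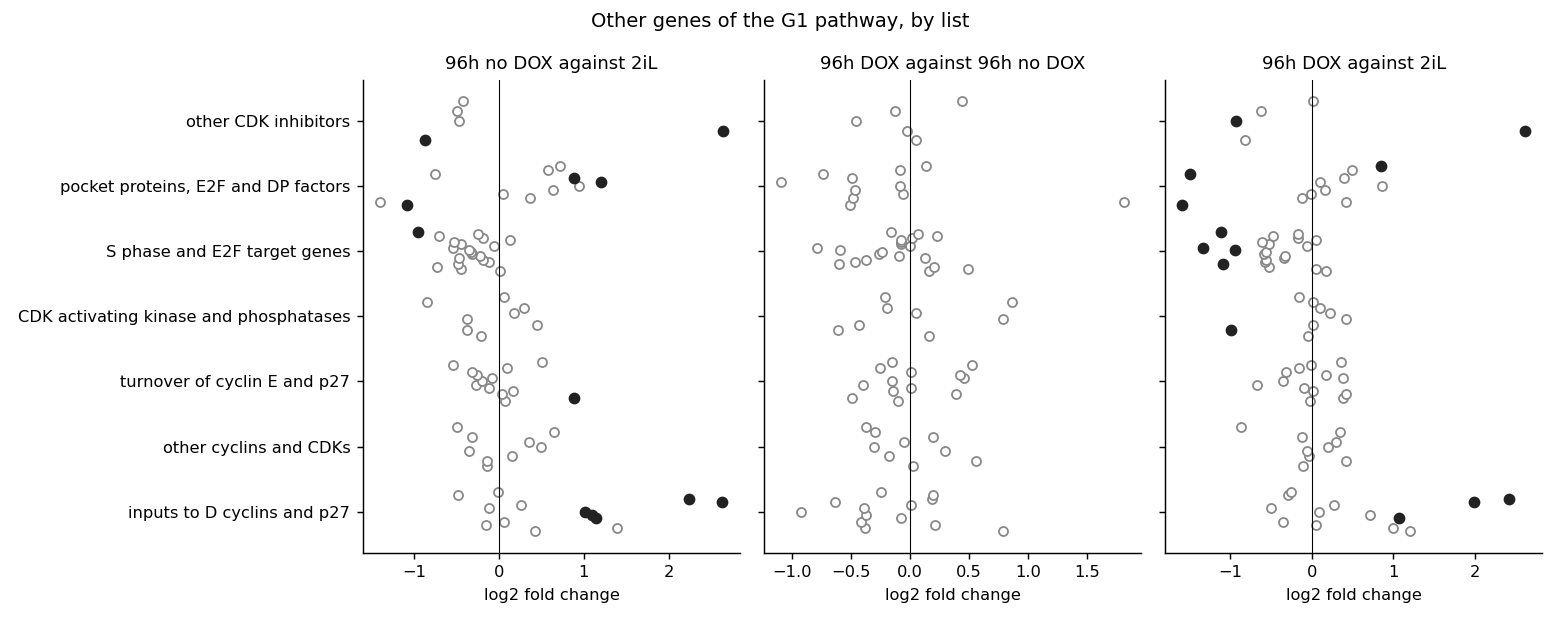
Log2 fold change of every tested gene of 7 lists of the G1 pathway (horizontal axes, 1 panel per comparison, scales differ between panels). Filled points were called at an adjusted p below 0.05 by edgeR, and none is filled with DOX against no DOX.

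Genes with a pattern most like a member were named by Pearson correlation of log2(TMM-scaled CPM + 1) over the 10 libraries, among 7704 genes with a mean of at least 10 CPM. The libraries share groups, so these values describe and do not test. Ccnd1 was most like Msl1 (r = 0.957), Fxyd6 (0.946) and Abcd4 (0.944), and Ccnd3 most like Tfeb (0.961), Tbc1d13 (0.960) and Naa35 (0.959). Ccne1 was most like Chic2 (0.976), Tgif1 (0.938) and Chid1 (0.915). For Ccnd2 the genes were Supt16 (0.938), Smarca2 (0.926) and Bmpr1a (0.925), and without 96 h DOX exp1_2 these fell to 0.840, 0.853 and 0.806. Between members over the same 10 libraries, the highest r were 0.77 for Ccne1 with Rb1 and 0.76 for Ccnd3 with Cdk6, and the lowest were -0.72 for Ccnd3 with Rb1 and -0.70 for Cdk4 with Cdkn1b.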

How the data were processed

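Read counts per gene and a CPM table, both deposited by the authors, were available for 10 libraries. Per the submitters' processing notes, STAR 2.6.0a, HTSeq and the mm10 build were used. Neither an annotation release nor a strand setting is named there or in the labels. HTSeq summary lines, which name no gene, held 62.7% to 68.4% of reads and were left out. CPM values the authors deposited were whole multiples of 1 read and gave back the counts in 310530 of 310530 entries (tolerance 0.01), and a count test on these recovered reads gave the same calls for the members. Symbols matched 30934 of 31053 gene IDs. Counts were filtered with filterByExpr (minimum count 10), scaled by TMM and tested with edgeR 4.0.16 (robust quasi-likelihood, R 4.3.3) in 1 fit of all libraries. Alternatives used DESeq2 1.42.0, limma 3.58.1, other scalings and filters, blocks, and each library left out. On simulated counts for 11215 genes with changes of 1 log2 unit, the fit recovered 31%, 33% and 27% of changed genes without DOX against 2iL, with DOX against no DOX and with DOX against 2iL, and 93%, 95% and 87% at 2 log2 units. Changes were placed only on genes with a mean of at least 10 CPM, so these rates do not cover lower genes such as Rb1. Only 100 genes were changed at each size, far fewer than the 2289 and 1870 genes called against 2iL. The adjusted p is stricter with fewer changed genes, so the rates may be too low for those comparisons. List genes were named by a rule: up to 2 called genes a list, direction and comparison, by size of change, with at least 10 CPM in the higher group. For 4 cyclins, the 3 most correlated genes were named. The members, lists and rules were chosen with earlier results of these data known.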

Additional observations from a re-analysis of the deposited data

How the results depend on the processing

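Of 23 alternatives for each comparison, the count of members called on withdrawal without DOX (3) ranged from 2 to 3 and that with DOX against 2iL (4) from 2 to 5. With DOX against no DOX (1) it was 0 within experiment 1, where Ccnd1 had adjusted p = 0.0506 by edgeR, and 2 without 96 h DOX exp1_1, where Cdkn1b was added; leaving out each library in turn gave 1 to 2. With DOX against 2iL it was 2 within experiment 1 (Ccnd1 and Cdk6). The experiment as a replicate block left the counts at 3, 1 and 4. The main fit did not pair same-numbered libraries, and the labels do not say whether they belong together. Of 8 such pairs, 1 had a correlation of deviations over 0.1 (range -0.101 to 0.227). Across experiments, 2 of 16 pairs did. With 3 or 4 libraries a group, these correlations cannot decide whether a pairing exists. With the library number added to that replicate block the counts were 2, 1 and 3, and Rb1 was lost from both comparisons with 2iL (adjusted p = 0.0605 and 0.0697). Over all tested genes, calls without DOX against 2iL (2289) fell to 1226 within experiment 1, and calls with DOX against 2iL (1870) fell to 926. Calls with DOX against no DOX (348) were 564 with no filter, 563 with DESeq2, 212 with only the 2 groups compared, 108 within experiment 1 and 159 with the library number added to the replicate block, and 161 to 358 leaving out each library in turn. No called member changed direction in any alternative, and Ccnd3 and Cdk6 on withdrawal and Ccnd1 and Cdk6 with DOX against 2iL were called in all 23. Rb1, counted among the calls against 2iL though it passed the filter only through its 96 h libraries, was not tested at a minimum count of 30. DESeq2 gave no adjusted p for Ccnd2. The depth of 1253620 reads in 96 h DOX exp1_2 puts 1 read at 0.737 CPM after scaling.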
